A study of Mus musculus with 12 samples.

Results

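Vitamin A enters cells, is oxidised to retinoic acid and is cleared through a short series of proteins, and 9 genes of this series were followed through colorectal tumors of mice: Stra6, Rbp4, Crabp2, Aldh1a1, Aldh1a2, Aldh1a3, Rarb, Cyp26b1 and Dhrs9. They were taken by symbol from 22180 genes with a named probe set, and where a gene has several probe sets, the one that stands for it is selected on its mean signal. Each of the 9 had 1 probe set with 1 symbol, so no measured level made a choice here, and all 9 lay above the filter that left out the dimmest 25% of genes. The genes were chosen by name with earlier results of these data known, among them the log2 differences of Stra6, so their adjusted p-values over all genes describe where they stand and are not independent evidence.

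The tumors arose after azoxymethane, which damages DNA, and after dextran sulfate sodium, an agent of colitis. The 4 groups of 3 samples were Stat3wt tumor, Stat3wt stroma, Stat3dm tumor and Stat3dm stroma. Stat3wt mice are the wild type and Stat3dm mice lack Stat3 conditionally in their myeloid cells, called the deletion here. Which driver recombines Stat3, and the strain, age or sex of the mice, are not stated in the labels, and the controls received the same tumor induction. Tumor and stroma were cut apart by laser-capture microdissection from paraffin tissue, each sample pooled 2 tumors of 1 mouse, and 50 ng of RNA were amplified and labelled for 1 array. The labels do not say whether tumor and stroma samples with 1 number came from 1 mouse.

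Retinol travels in blood bound to the carrier RBP4 and can be taken up by cells through the membrane receptor STRA6. Inside the cell retinol dehydrogenases make retinal, retinaldehyde dehydrogenases of the ALDH1A family oxidise it to retinoic acid, CRABP2 delivers retinoic acid to nuclear receptors such as RAR-beta, and CYP26 enzymes degrade it. In the gut retinoic acid is known for imprinting homing receptors on lymphocytes and for acting on epithelial differentiation, and Stra6 is also known as a gene that Wnt signaling can raise.

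The values are log2 signals, in which a difference of 1 is a doubling, and they are compared between samples for 1 gene at a time. The median signal of the arrays ranged from 4.20 to 4.43. Their spread, as a standard deviation (SD), ranged from 1.60 to 1.91 and was widest on Stat3wt tumor 3 and Stat3dm tumor 3. Arrays of 1 group correlated at 0.881 to 0.967, and 0 of 66 pairs were identical. The mean log2 level of 10 epithelial markers was 8.44 to 9.18 in wild type tumor and 7.54 to 7.94 in wild type stroma, and 8.58 to 9.25 in deletion tumor and 7.26 to 8.67 in deletion stroma, which overlapped. Stroma thus still held epithelial RNA. In such samples fewer cells of a type and less RNA per cell cannot be told apart. The file gives no detection calls, so whether the dimmer genes lay above background was not tested.

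Stra6, the receptor for retinol carried by RBP4, was the member that varied most, over a log2 range of 3.57 across the 12 arrays. Its log2 level in wild type tumor was 8.37, 8.38 and 8.20. In wild type stroma it was 6.08, 7.45 and 6.23. In deletion tumor it was 4.90, 6.17 and 5.40, and in deletion stroma 5.33, 4.81 and 5.68. The 3 wild type tumors were thus above all 9 other samples, and next came wild type stroma 2. The group mean was highest in tumor of wild type mice (8.32 ± 0.10), then came their stroma (6.59 ± 0.75), then tumor of the deletion (5.49 ± 0.64) and last its stroma (5.27 ± 0.44, all SD, n = 3). Wild type stroma and deletion tumor overlapped, as did deletion tumor and deletion stroma.

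In tumor Stra6 was 7.09-fold lower in the deletion than in wild type (log2 difference -2.83 ± 0.37 SE, 95% interval -3.61 to -2.05), and the groups did not overlap. It passed with adjusted p = 0.0136 in limma's moderated test over 16635 genes, the smallest p but 1. In this comparison 0.018% of all genes passed, all of them lower in the deletion, and Stra6 was the 1 of 9 members among them. The call was lost without wild type tumor 2 (-2.79, adjusted p = 0.0914), without wild type tumor 3 (-2.88, 0.0627), without deletion tumor 1 (-2.53, 0.0527) and without the pair of arrays of widest spread (-2.84, 0.141). It held under the other 19 of 23 alternatives, and under all 23 the difference lay between -3.17 and -2.38, with adjusted p from 0.000652 to 0.141.

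In stroma Stra6 was 2.48-fold lower in the deletion (-1.31 ± 0.37 SE, 95% interval -2.09 to -0.53), again without overlap, and did not pass (adjusted p = 0.539). Averaged over both tissues the deletion difference was -2.07 ± 0.26 SE and passed (adjusted p = 0.00648), as it did under all 22 alternatives, with values from -2.24 to -1.86. There 0.283% of genes passed and Stra6 was again the 1 member among them. The deletion difference was larger in tumor than in stroma by 1.51 (95% interval 0.41 to 2.62), which did not pass as an interaction (adjusted p = 0.995 over all genes).

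Between the tissues, Stra6 was 3.32-fold lower in stroma than in tumor of wild type mice (-1.73 ± 0.37 SE), without overlap and without passing (adjusted p = 0.185). It passed there without wild type stroma 2, the highest of the 3 stroma samples (-2.16, adjusted p = 0.0442), with array weights (-1.40, 0.0227) and with the fixed replicate block (-1.73, 0.0408). These were 3 of 23 alternatives, over which adjusted p ranged from 0.0227 to 0.525. In the deletion the tissues differed by -0.22, with a 95% interval of -0.997 to 0.56. The comparison of genotypes in tumor and that of tissues in wild type share the 3 wild type tumors.

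**Figure D1:**
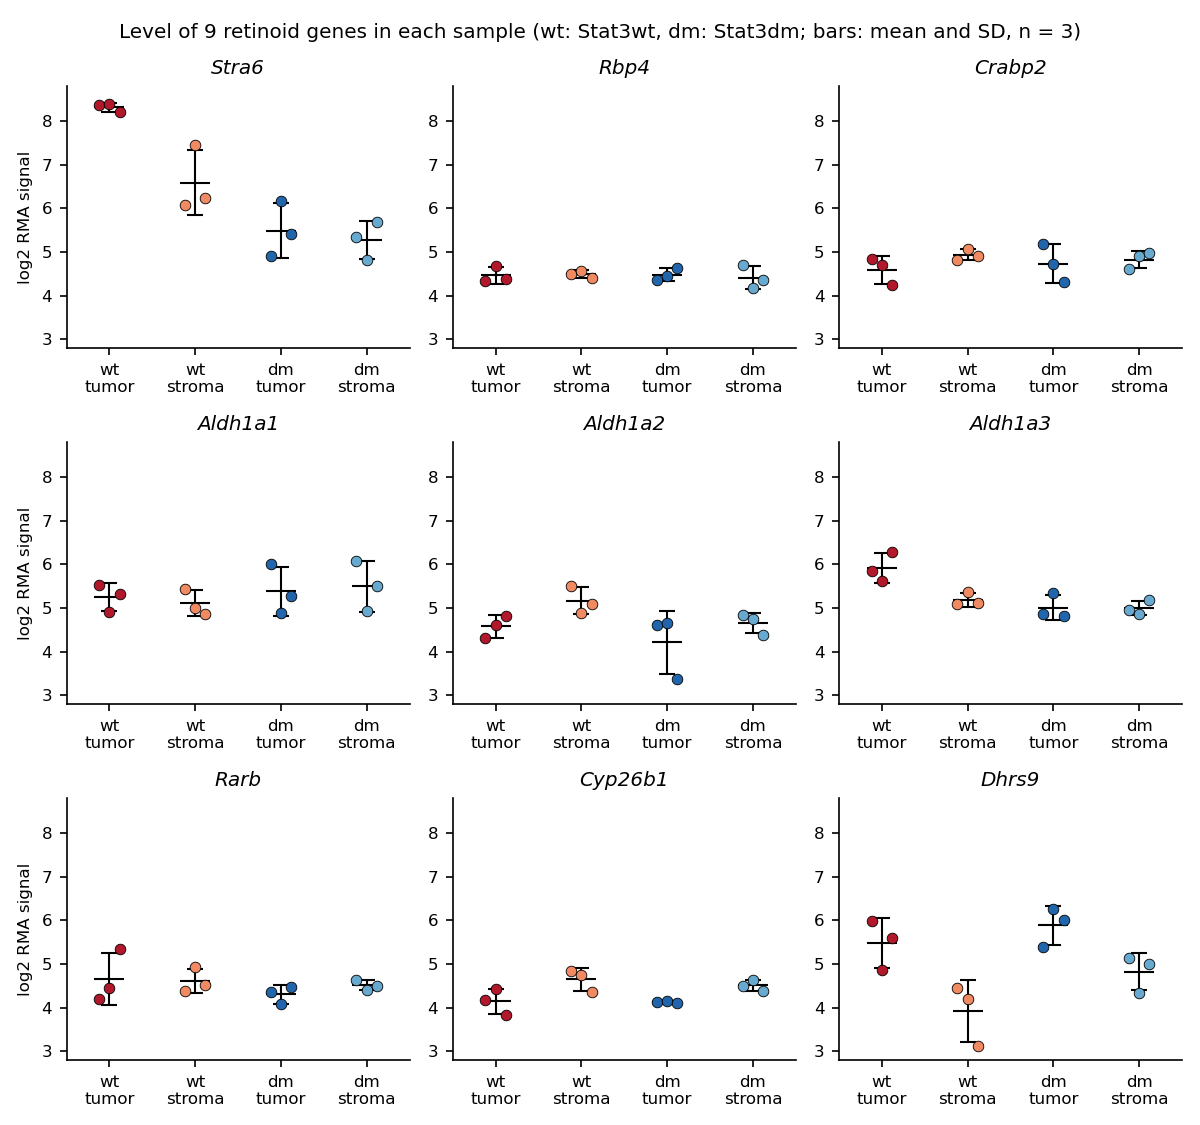
Level of each of the 9 genes in each sample. Each panel is 1 gene, the vertical axis is the log2 RMA signal, points are samples in 4 groups (wt is Stat3wt, dm is Stat3dm) and bars are the mean and SD of 3 samples. Stra6 sits at 8.20 to 8.38 in the wild type tumors and at 6.17 or lower in all 6 deletion samples, while Rbp4 stays between 4.18 and 4.70.

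Some other gene groups also differed between wild type and deletion tumor. The Wnt targets were lower in the deletion, as Stra6 was, and the colonocyte and T cell genes were higher. Their part in the difference of Stra6 was not tested. The mean log2 level of 10 Wnt target genes was 7.29 to 7.81 in wild type tumor and 5.65 to 6.92 in deletion tumor. That of 5 colonocyte genes was 5.74 to 6.17 in wild type tumor and 6.90 to 7.19 in deletion tumor, with all 5 higher in the deletion. The epithelial markers were mixed, with 6 of 10 higher in deletion tumor and a median difference over all 10 of 0.074. Epcam, Cdh1, Cdh17 and Krt18 were lower there, Krt18 with a mean log2 level of 9.56 against 10.4 in wild type tumor. All 6 T cell markers were higher in deletion tumor, with a mean log2 level of 5.12 to 5.38 against 4.68 to 5.02 in wild type tumor and a median difference of 0.37. Of 6 macrophage markers 2 were higher in deletion tumor, and the median difference was -0.19. None of these marker genes passed in that comparison.

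The promoters of the members are shown for Stra6, the gene that moved most, and for Rarb, whose promoter holds a known type of retinoic acid response element. RefSeq promoter windows on GRCm38.p6, each 300 bases from 250 before to 50 after a start site, were at hand for 7 of the 9 genes, with 4 windows for Stra6. Both strands were searched for hexamers of the retinoic acid receptors (the word AGGTCA, the word AGTTCA, the word GGGTCA and the word GGTTCA), for 2 such hexamers in 1 direction with 5 bases between them, and for TCF/LEF words (the word CTTTGAA, the word CTTTGAT, the word CTTTGTA and the word CTTTGTT), named after factors that Wnt signaling acts through. Of 32851 windows 43.7% held a hexamer, 0.0974% the pair and 16.9% a TCF/LEF word. These are shares of single windows, and a gene searched in several windows, as Stra6 was in 4, has more room for a match. A Stra6 window (chr9:58129099-58129398, plus strand) held 1 TCF/LEF word on its minus strand, printed in capitals, which starts at position -145 from the start site.
Stra6 upstream start: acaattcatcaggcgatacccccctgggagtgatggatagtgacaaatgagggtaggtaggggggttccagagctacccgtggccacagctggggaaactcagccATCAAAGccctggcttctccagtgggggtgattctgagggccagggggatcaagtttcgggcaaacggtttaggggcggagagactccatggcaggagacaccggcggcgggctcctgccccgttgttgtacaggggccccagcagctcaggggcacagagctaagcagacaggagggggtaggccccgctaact
Another Stra6 window (chr9:58133825-58134124, plus strand) held 1 hexamer, in capitals, at position 16 downstream of the start site.
Stra6 downstream start: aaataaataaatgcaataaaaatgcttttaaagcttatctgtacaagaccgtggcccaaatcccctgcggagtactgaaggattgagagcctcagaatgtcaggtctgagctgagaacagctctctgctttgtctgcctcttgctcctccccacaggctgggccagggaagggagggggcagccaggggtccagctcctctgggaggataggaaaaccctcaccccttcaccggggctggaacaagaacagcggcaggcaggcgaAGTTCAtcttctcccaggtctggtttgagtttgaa
The other 2 Stra6 windows held none of these letters. Hexamers also stood in windows of Aldh1a1, Dhrs9 and Rbp4, with 1 each, and in that of Rarb, with 3. TCF/LEF words also stood in a window of Aldh1a1, which held 2, and in a window of Rbp4, which held 1. The deletion differences of Aldh1a1 and Rbp4 in tumor were 0.13 and 0.015. The part of such words in the difference of any gene was not tested. A match describes letters in a window and not a bound site.

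Rbp4, the plasma carrier of retinol, stayed within a log2 range of 0.52 over all 12 arrays. Its level was 4.33, 4.67 and 4.38 in wild type tumor and 4.35, 4.44 and 4.64 in deletion tumor. The 2 groups overlapped, and the deletion difference was 0.015 (95% interval -0.40 to 0.43). In stroma it was 4.49, 4.58 and 4.40 in wild type and 4.70, 4.18 and 4.36 in the deletion, with overlap again and a difference of -0.075 (-0.49 to 0.34). Of the adipocyte markers, a cell type known to make Rbp4, 2 of 5 lay above the dim filter.

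Crabp2, which shuttles retinoic acid to its receptors, had log2 levels of 4.84, 4.71 and 4.23 in wild type tumor, 4.82, 5.07 and 4.91 in wild type stroma, 5.18, 4.72 and 4.31 in deletion tumor and 4.61, 4.90 and 4.97 in deletion stroma. All groups overlapped. Its lowest values were on Stat3wt tumor 3 and Stat3dm tumor 3, the widest arrays, and its correlation with the SD of the arrays was -0.70 over 12 arrays. The deletion difference was 0.14 in tumor (95% interval -0.38 to 0.65) and -0.11 in stroma (-0.62 to 0.41).

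Dhrs9, a short-chain dehydrogenase that oxidises retinol, followed the tissue. Its log2 level was 5.98, 4.87 and 5.60 in wild type tumor and 4.45, 4.20 and 3.12 in wild type stroma. In the deletion it was 5.40, 6.27 and 6.01 in tumor and 5.13, 4.34 and 5.002 in stroma. Tumor lay above stroma without overlap in each genotype. Averaged over both genotypes Dhrs9 was lower in stroma by -1.31 ± 0.26 SE and passed (adjusted p = 0.0301), the 1 of 9 members to do so, where 2.55% of all genes passed. The call was lost with the array spread as a covariate (-1.35, adjusted p = 0.0533), without the pair of widest arrays (-1.25, 0.115), without wild type tumor 1 (-1.19, 0.0886), without wild type tumor 3 (-1.28, 0.0613) and without wild type stroma 3 (-1.11, 0.0654). It was also lost without deletion tumor 2 (-1.22, 0.082), without deletion tumor 3 (-1.28, 0.076) and without deletion stroma 2 (-1.19, 0.0925), while it held under 14 of 22 alternatives, with adjusted p from 0.000921 to 0.115.

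Within each genotype the fall of Dhrs9 from tumor to stroma was 2.95-fold in wild type (adjusted p = 0.185) and 2.09-fold in the deletion (adjusted p = 0.37), and neither passed. In wild type it passed under 2 of 23 alternatives, array weights (adjusted p = 0.0131) and the fixed replicate block (0.0458), in a range of 0.0131 to 0.525. In the deletion it passed under 1 of 23, array weights (0.0268), in a range of 0.0268 to 0.979. It lay higher in the deletion, by 0.90 in stroma (95% interval 0.11 to 1.69, adjusted p = 0.898) and by 0.41 in tumor (-0.38 to 1.20), with overlap in both. The mean log2 level of 6 goblet cell markers was 9.14 to 9.83 in wild type tumor and 7.15 to 8.43 in wild type stroma, without overlap as for Dhrs9. In the deletion it was 9.34 to 10.2 in tumor and 8.66 to 9.95 in stroma, and these overlapped while Dhrs9 did not. Between genotypes 6 of 6 goblet markers were higher in deletion stroma and 5 of 6 in deletion tumor, with medians of 1.3 and 0.39. Of the 10 epithelial markers, 0 lay above 0 from tumor to stroma in either genotype, with medians of -1.1 in wild type and -0.92 in the deletion. The part of either list in the differences of Dhrs9 was not tested.

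The 3 retinaldehyde dehydrogenases, which make retinoic acid, did not move together. Aldh1a3 had log2 levels of 5.84, 5.61 and 6.29 in wild type tumor, 5.09, 5.36 and 5.11 in wild type stroma, 4.87, 5.34 and 4.81 in deletion tumor and 4.94, 4.87 and 5.18 in deletion stroma. As for Stra6, the 3 wild type tumors were above all 9 other samples, and the other 3 groups overlapped. In tumor Aldh1a3 was 1.88-fold lower in the deletion (-0.91 ± 0.22 SE, adjusted p = 0.254), and in wild type it was 1.66-fold lower in stroma (-0.73 ± 0.22 SE, adjusted p = 0.217). Neither passed, and without the pair of widest arrays, one of them wild type tumor 3, the tumor difference was -0.62. In stroma the deletion difference was -0.19 (95% interval -0.66 to 0.29).

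Aldh1a2, the form known from stromal and dendritic cells, was highest in wild type stroma. Its log2 level there was 5.50, 4.89 and 5.09, against 4.31, 4.61 and 4.83 in wild type tumor and 4.83, 4.74 and 4.39 in deletion stroma. Wild type stroma overlapped neither of these groups. The differences were 0.58 from tumor to stroma in wild type (95% interval -0.08 to 1.23, adjusted p = 0.327) and -0.51 from wild type to deletion in stroma (-1.16 to 0.15, adjusted p = 0.999). In deletion tumor it was 4.60, 4.65 and 3.38, and the low value came from Stat3dm tumor 3, an array of wide spread. Its difference from wild type tumor was -0.37, and 0.17 without the pair of widest arrays. Of 7 dendritic cell markers 6 lay above 0 from tumor to stroma in wild type, with a median of 0.36, and of 8 fibroblast markers 7, with a median of 0.74. From wild type to deletion stroma, where Aldh1a2 was lower, 5 of 7 dendritic cell markers were higher (median 0.1) and 2 of 8 fibroblast markers (median -0.097). The part of either list in the differences of Aldh1a2 was not tested.

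Aldh1a1, the remaining form, ranged from 4.87 to 6.08 over the 12 arrays, and all 4 groups overlapped. Its highest values were 6.08 in deletion stroma 1 and 5.995 in deletion tumor 1. The deletion difference was 0.39 in stroma (95% interval -0.30 to 1.08) and 0.13 in tumor (-0.56 to 0.82), and from tumor to stroma it was -0.15 in wild type and 0.12 in the deletion.

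Rarb encodes the retinoic acid receptor RAR-beta and is known as a gene that retinoic acid itself induces. Its promoter window (chr14:16575427-16575726, minus strand, GRCm38.p6) was the 1 of 12 windows of the members that held the pair of hexamers. The pair starts at position -53 from the start site, with its hexamers in capitals and the 5 bases between them in lower case. The window held 3 hexamers in all, and the one outside the pair is left in lower case.
Rarb start: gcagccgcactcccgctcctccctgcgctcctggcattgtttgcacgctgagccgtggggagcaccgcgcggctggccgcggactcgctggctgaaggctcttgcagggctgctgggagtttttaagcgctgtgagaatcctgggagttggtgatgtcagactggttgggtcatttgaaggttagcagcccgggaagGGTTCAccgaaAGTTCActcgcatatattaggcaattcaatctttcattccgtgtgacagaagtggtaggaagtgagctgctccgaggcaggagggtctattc
Rarb had log2 levels of 4.19, 4.45 and 5.34 in wild type tumor and 4.35, 4.07 and 4.48 in deletion tumor, with 1 high value on Stat3wt tumor 3. In stroma it was 4.38, 4.93 and 4.52 in wild type and 4.64, 4.41 and 4.49 in the deletion. All groups overlapped. The deletion difference was -0.36 in tumor (95% interval -0.93 to 0.22) and -0.10 in stroma (-0.67 to 0.48).

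Cyp26b1, which breaks retinoic acid down, lay higher in stroma. Its log2 level was 4.18, 4.42 and 3.84 in wild type tumor and 4.85, 4.74 and 4.35 in wild type stroma. In the deletion it was 4.13, 4.16 and 4.10 in tumor and 4.49, 4.64 and 4.39 in stroma, without overlap, while the wild type groups overlapped. The difference from tumor to stroma was 0.50 in wild type (95% interval 0.07 to 0.94, adjusted p = 0.264) and 0.38 in the deletion (-0.06 to 0.82, adjusted p = 0.601). Averaged over both genotypes it was 0.44 ± 0.14 SE and did not pass (adjusted p = 0.103). It passed under 3 of 21 alternatives, array weights (adjusted p = 0.0202) and both fits with a replicate block (0.0343 and 0.0392), in a range of 0.0202 to 0.402. Its correlation with the SD of the arrays was -0.76 over 12 arrays. Adding this SD to the fit left smaller tissue differences of the same sign. They were 0.26 in wild type (adjusted p = 0.834), 0.28 in the deletion and 0.27 on average, and none passed. The deletion differences were -0.02 in tumor and -0.14 in stroma.

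**Figure D2:**
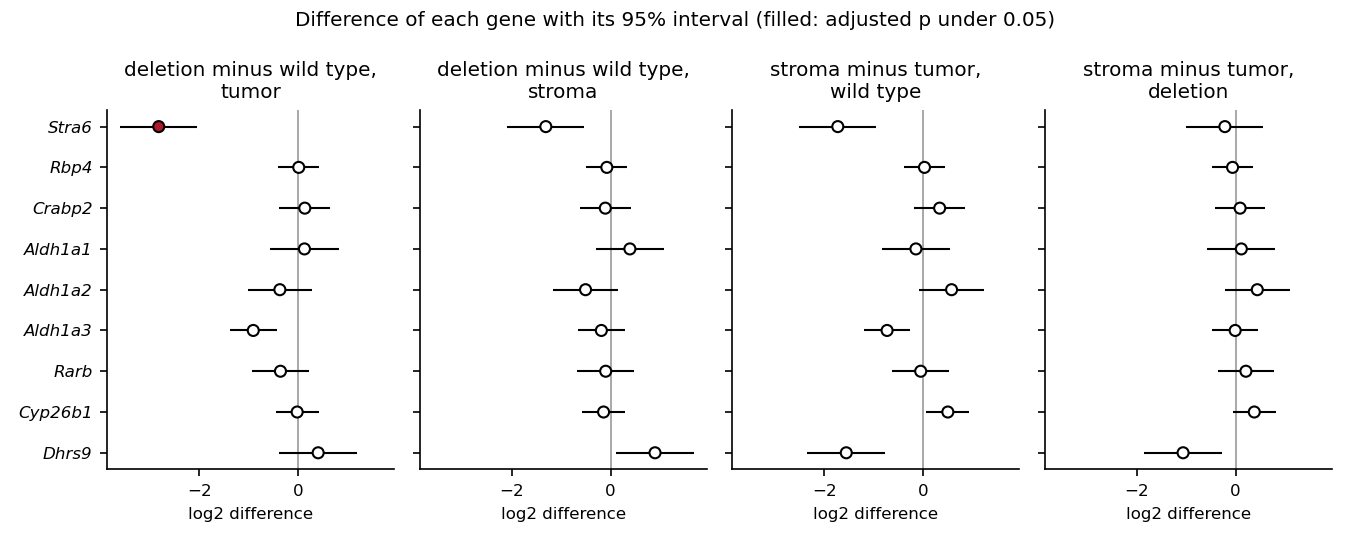
Log2 difference of each gene in 4 comparisons, with its 95% interval from limma over all 12 arrays. The horizontal axis is the log2 difference, and a filled point marks adjusted p under 0.05. The 1 filled point is Stra6 in deletion against wild type tumor, at -2.83.

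Counted over the members, the groups did not overlap for 2 of 9 between genotypes in tumor (Stra6 and Aldh1a3, both lower in the deletion, where 9.52% of all genes did not overlap and 5.46% were lower). In stroma it was 2 of 9 (Stra6 and Aldh1a2, both lower), against 10.8% of all genes, 5.62% lower. Between tissues the count was 4 of 9 in wild type (Stra6, Aldh1a3 and Dhrs9 lower in stroma, Aldh1a2 higher), against 23.9% of all genes. In the deletion the count was 2 of 9 (Dhrs9 lower and Cyp26b1 higher), against 13.7%. In 4 comparisons limma's adjusted p passed for 0% of all genes and 0 of 9 members. At an unadjusted p under 0.05 these held 2 of 9 members between genotypes in stroma (5.07% of all genes), 4 between tissues in wild type (16.7%), 1 between tissues in the deletion (9.68%) and 2 in the interaction (2.41%). The median log2 difference of the 9 was -0.017 between genotypes in tumor and -0.11 in stroma, beside -0.0094 and -0.016 over all genes. In tumor 4 of 9 members lay above 0, beside the low Stra6 and Aldh1a3.

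A wider list of the retinoid pathway held 60 other named genes, of which 48 were tested. Between genotypes 0 of 48 passed in tumor, in stroma or on average over both tissues. The medians were 0.041 in tumor and 0.056 in stroma, with 28 and 32 of 48 above 0. The genes with the smallest p in tumor were Nrip1, a cofactor that binds nuclear receptors (-1.21 ± 0.31 SE, adjusted p = 0.294), and Rdh10, a retinol dehydrogenase (-1.11 ± 0.31 SE, adjusted p = 0.404). In stroma they were the alcohol dehydrogenase Adh1 (1.37 ± 0.35 SE, adjusted p = 0.435) and the lipoprotein lipase Lpl (0.66 ± 0.23 SE, adjusted p = 0.728). The 10 receptors and cofactors, among them Rara, Rarg and Rxra, had medians of 0.0068 in tumor and 0.026 in stroma. The 8 tested genes known to respond to retinoic acid had medians of 0.09 and 0.18, with 5 and 6 above 0.

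**Figure D3:**
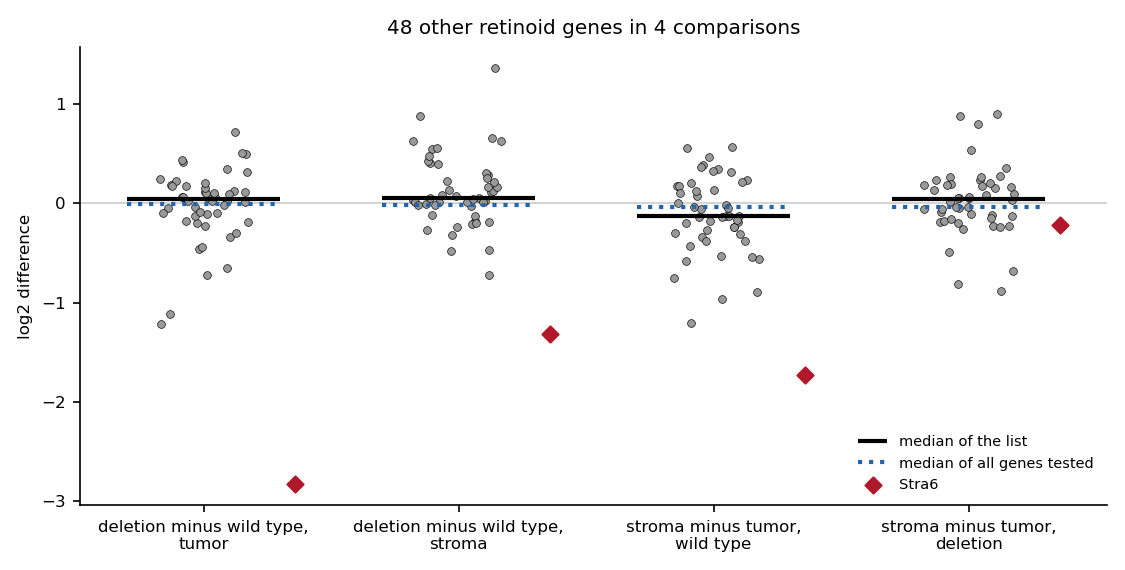
Log2 differences of the 48 other tested retinoid genes in 4 comparisons. Each grey point is a gene, the black line is the median of the list, the dotted line the median of all 16635 genes tested and the diamond is Stra6. The list medians lie within 0.13 of 0, while Stra6 lies at -2.83 in tumor and -1.31 in stroma between genotypes.

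Rdh10 was the 1 gene of that list to pass between tissues. Its log2 level was 7.75, 8.08 and 8.64 in wild type tumor, 6.67, 6.93 and 7.26 in wild type stroma, 6.47, 7.17 and 7.48 in deletion tumor and 5.78, 6.19 and 6.72 in deletion stroma. Wild type tumor was the highest group, and wild type stroma and deletion tumor overlapped. By the group means deletion tumor (7.04) stood just above wild type stroma (6.95), the reverse of Stra6. Averaged over both tissues its deletion difference was -0.92 ± 0.22 SE and did not pass (adjusted p = 0.112). This passed under 4 of 22 alternatives, quantile normalization (0.0425), array weights (0.0324), the array spread as a covariate (0.0309) and the fixed replicate block (0.00157). In tumor alone the deletion difference passed under 1 of 23, the fixed replicate block (0.0129). Averaged over both genotypes Rdh10 was 2.01-fold lower in stroma (-1.01 ± 0.22 SE, adjusted p = 0.0362). The call was lost without either of wild type tumor 1 (-1.11, adjusted p = 0.0711) and 3 (-0.89, 0.073), without wild type stroma 1 (-0.94, 0.0632), 2 (-0.999, 0.0647) or 3 (-1.08, 0.0654), without deletion tumor 2 (-0.97, 0.0868) or 3 (-0.90, 0.086) and without deletion stroma 2 (-0.997, 0.107). It was also lost after median centring (-1.07, 0.0552), with the array spread as a covariate (-0.56, 0.111) and without the pair of widest arrays (-0.78, 0.138), and it held under 11 of 22. Itgb7, an integrin chain of gut-homing lymphocytes, was higher in stroma by 0.73 ± 0.19 SE (adjusted p = 0.0541) and did not pass.

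The levels most like that of Stra6 over the 12 arrays, by Pearson's r, were those of Apcdd1 (0.95), Tbx3 (0.95), Tenm4 (0.94), Kif1a (0.94), Tpra1 (0.93) and Cldn4 (0.93). Apcdd1 is known as an inhibitor of Wnt signaling, Tbx3 as a T-box transcription factor and Cldn4 as a tight junction claudin. Apcdd1 had a mean log2 level of 9.46 in wild type tumor, 7.71 in wild type stroma, 6.47 in deletion tumor and 5.58 in deletion stroma. These r hold the group differences, which share all arrays. With each sample taken as its deviation from its group mean they were 0.75, 0.69, 0.58, 0.73, 0.59 and 0.64 in the same order.

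Among the members Aldh1a3 was like Stra6, with r = 0.90 (0.57 within groups), position 19 of 16634 genes by r. The other 7 members had r with Stra6 between -0.30 and 0.33. Of 10 Wnt target genes set beside it, Sp5, a transcription factor induced by Wnt, had r = 0.89, Lef1, a partner of beta-catenin, 0.87, and the feedback inhibitor Axin2 0.85, and the lowest was Ascl2 at 0.57. The mean of the 10 had r = 0.85 with Stra6 and 0.56 within groups. These are descriptions over 12 arrays in 4 groups. Stra6 and Aldh1a3 also correlated with the SD of the arrays, at 0.49 and 0.59, and the part of that spread in their r was not tested.

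**Figure D4:**
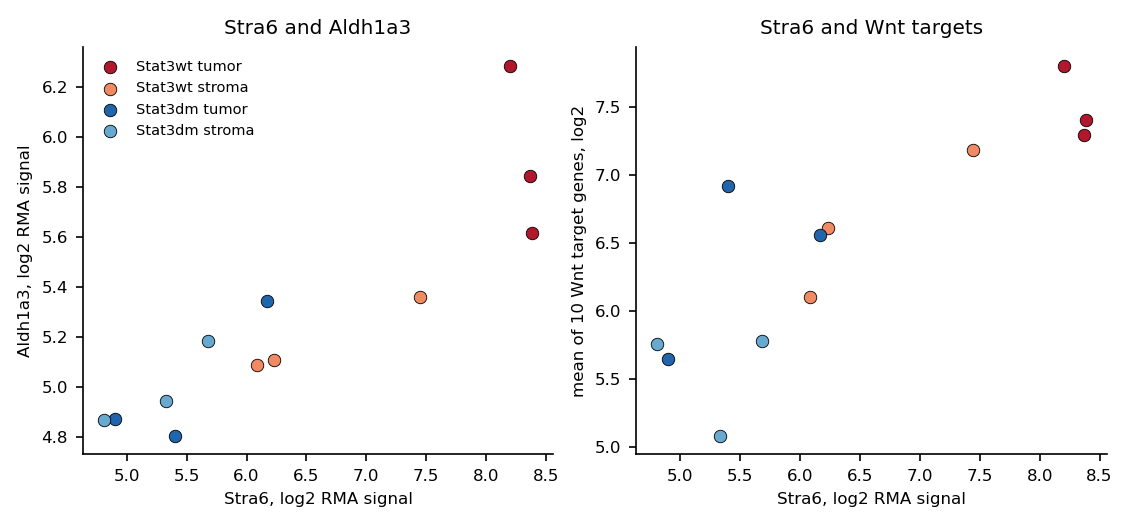
Level of Stra6 in each sample (horizontal axis, log2 RMA signal) against Aldh1a3 (left) and against the mean of 10 Wnt target genes (right). Points are samples, coloured by group. The 3 wild type tumors lie apart at the top right in both panels, with Stra6 at 8.20 to 8.38.

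Other members were like other genes. Dhrs9 was most like Duox2 (r = 0.98), an oxidase of the gut epithelium, Clca4b (0.97) and Clca3b (0.96), and within groups r was 0.91 for each. Crabp2 was most like Krt1 (0.95), a keratin of squamous epithelium, Cyp27b1 (0.94) and Endou (0.94). Within groups r was 0.95, 0.94 and 0.94. Krt1, Cyp27b1 and Endou had group means of 4.5 to 4.8, 4.1 to 4.5 and 3.6 to 3.8, beside a dim filter at 3.65. Aldh1a1 was most like the chloride channel Cftr (0.85), Rbp4 most like Psrc1 (0.80), and Cyp26b1 most like Gal3st3 (0.93). Crabp2 and Cyp26b1 correlated with the SD of the arrays at -0.70 and -0.76 (-0.48 and -0.66 by Spearman's rank correlation). Aldh1a2 did so at -0.53, Rarb at 0.43, Dhrs9 at 0.35, Aldh1a1 at -0.28 and Rbp4 at -0.02. The part of that spread in these r was not tested.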

How the data were processed

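Gene expression was measured on 12 single-colour Affymetrix arrays. The authors deposited log2 signals for 41345 probe sets. Per the submitters' processing notes they used Affymetrix Expression Console 1.3.1 and RMA, a robust multi-array average. A genome build for the array is not given here. In the platform's annotation 23521 probe sets had 1 symbol, and 16010 were not listed. With R 4.3.3 and limma 3.58.1 a mean per group was fitted for 16635 genes with a mean of at least 3.65, and 7 contrasts were tested (eBayes, Benjamini-Hochberg, 0.05). All p-values in the text are from limma. The fit recovered known changes in data simulated with independent noise. That noise lacked the deviations these arrays share, so the simulation does not test the p-values under them. The p-values measure the spread between samples within groups. All 12 arrays were treated as independent, although tumor and stroma samples with 1 number may come from 1 mouse. The members, lists, motifs and alternatives were chosen with earlier results of these data known. Named genes were the members, list genes that passed or had the 2 smallest p in a contrast, the genes most like a member by r (6 for Stra6, 3 for others, predicted genes passed over), and fixed markers. Of 68 listed retinoid names 62 matched a gene, Rbpr2 as Stra6l. Marker lists not described in the text had 0 genes that passed in the 4 comparisons of 2 groups. Sequences are from RefSeq.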

Additional observations from a re-analysis of the deposited data

How the results depend on the processing

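The deletion difference of Stra6 on average over both tissues passed under all 22 alternatives. The labels number samples 1 to 3 in each group. Deviations from the group means of same-numbered tumor and stroma samples of 1 genotype correlated over 0.1 in 5 of 6 pairs (0 to 0.51), and those of differently numbered samples in 2 of 12 (-0.50 to 0.33). Over all groups, pairs of different genotypes included, 15 of 18 same-numbered pairs were over 0.1. The highest (0.69) was that of Stat3wt tumor 3 and Stat3dm tumor 3, the arrays of widest spread. The array numbered 3 had the widest spread in each group, with an SD of 1.91 in wild type tumor, 1.76 in wild type stroma, 1.85 in deletion tumor and 1.72 in deletion stroma. The part of that spread in these correlations was not tested. Across genotypes a shared number cannot be 1 mouse. The labels do not say what the number marks. Of the tumor and stroma pairs of 1 genotype, 1 was at 0, and Stat3wt tumor 2 correlated better with stroma 1 (0.33) than with stroma 2. The reported fits have no block, because no label says that the number marks a shared mouse, litter or day. Rerun with array weights, estimated gene by gene because the default did not converge, more genes passed in every comparison. In order of deletion against wild type in stroma, in tumor and on average, stroma against tumor in wild type, in the deletion and on average, and the interaction, the counts of genes that passed were 0, 3, 47, 0, 0, 425 and 0 as reported. They were 45, 304, 431, 1020, 612, 2642 and 3 with array weights. With the replicate number as a fixed replicate block the first 6 were 28, 89, 292, 304, 86 and 2187. With genotype and number as a random replicate block 13 genes passed for the average deletion difference and 5, 62 and 1648 for the tissues. With the array spread as a covariate 13, 14 and 166 passed between genotypes and 114 and 264 between tissues in the deletion and on average. Quantile normalization gave 1 in stroma, 90 for the average deletion difference and 33 between tissues in the deletion, and median centring 17 and 168 for the averages. Of the genes that passed between tissues on average 141 of 425 were higher in stroma, 246 of 439 after quantile normalization, 32 of 168 after median centring and 228 of 264 with the array spread. Leaving out 50% of genes gave 5 in tumor. Without the pair of widest arrays, an alternative chosen after seeing the data, 24 and 0 passed for the averages. Leaving out 1 sample in turn gave 0 to 2, 0 to 7, 16 to 71, 0 to 8, 0 to 22 and 0 to 1296 genes in the order above.

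Of the 9 members 1 passed in tumor between genotypes and 1 between tissues on average. Leaving out 1 sample gave 0 to 1 and 0 to 2, and the widest pair 0 and 0. Between tissues on average 4 passed with array weights, 3 with the fixed replicate block (Stra6, Dhrs9 and Cyp26b1), the same 3 with the random replicate block and 0 with the array spread. In wild type Stra6 and Dhrs9, 2 members, passed between tissues with array weights, the same 2 with the fixed replicate block and 0 to 1 without 1 sample, and in the deletion 1 with array weights. Of the 48 list genes 1 passed between tissues on average, with 0 to 3 without 1 sample. That count was 10 with array weights, 6 with the fixed and 5 with the random replicate block, 2 with 50% left out, 2 after quantile normalization, and 0 after median centring, with the array spread or without the widest pair. Between genotypes 1 list gene passed in tumor with array weights and 2 with the fixed replicate block. For the average 2 passed with array weights, 2 with the array spread, 2 with the fixed replicate block and 1 after quantile normalization. Between tissues array weights gave 2 in wild type and 2 in the deletion, and the fixed replicate block 1 in wild type. In these data no called difference of a member changed sign. Signal over background limits the dimmer members, and no detection calls were given.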
